A study of Mus musculus with 4 samples.

Results

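Genes of fatty acid uptake and mitochondrial fatty acid oxidation were examined for nearby binding of CTCF, a DNA-binding zinc-finger protein known for its part in insulators and in anchoring chromatin loops. The 10 genes, of 21887 protein-coding genes in RefSeq's gene table for GRCm38.p6 (also named mm10), were chosen by name: Cd36, Slc27a1, Fabp3, Cpt1b, Cpt2, Acadm, Acadl, Acadvl, Hadha and Hadhb. A CTCF region, meaning an interval that the authors' peak caller reported as enriched, was assigned to a gene when its summit lay within 50 kb of the gene span. By this rule 32 of the 20043 regions of the control library and 20 of the 16128 regions of the second library belonged to the 10 genes.

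The regions come from chromatin immunoprecipitation and sequencing (ChIP-seq) of CTCF in isolated cardiac myocytes from the left ventricle of C57BL/6 mice. The control library carries the genotype label control, and the second carries the label CTCF_knockout. The cells were pooled from 3 hearts per genotype. The labels name no treatment, age, Cre driver or time of deletion, and peak lists hold no expression by which the cell type could be checked. With 1 ChIP library per genotype there was no replicate and no test between genotypes. Every interval below covers counting error only. The input libraries, 1 for each genotype, were not analysed here. Since the second list was 0.805 times as long as the control list, the second library is called by its label throughout.

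Heart muscle takes most of its fuel from long-chain fatty acids. They enter the myocyte through the membrane proteins CD36 and FATP1 (the product of Slc27a1) and are carried in the cytosol by the heart-type binding protein FABP3. The carnitine palmitoyltransferases CPT1B, on the outer mitochondrial membrane, and CPT2, on the inner one, pass the acyl groups into the matrix. There the acyl-CoA dehydrogenases ACADVL, ACADL and ACADM take the first step of each round of oxidation on very-long-, long- and medium-chain substrates, and the trifunctional protein, built of HADHA and HADHB, takes the remaining steps for long chains. CTCF sites beside such genes are of interest because loops between sites set which enhancers a promoter can meet.

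The start windows in the RefSeq promoter table, each running from 250 bases before a start site to 50 bases after it, gave sequence for 1 of the CTCF regions near the 10 genes. That region lay 13.9 kb from the upper end of Cpt2 at the start of the long non-coding gene Gm40221, and it was called in both libraries. The window is shown because the control region (chr4:107937406-107937546) covers its last 115 bases and the region of the library labelled knockout (chr4:107937352-107937507) covers 156 bases of it. Capitals mark the 12 bases that match CCAC, any 2 bases, then GGGGGC, a G-rich form of the CTCF core motif chosen after this sequence was seen. The core motif first searched for (CCA, any 2 bases, AG, any 2 bases, GGC) had no match in this window. Its looser form, with any base at the third position, had none either.
Gm40221 start window, plus strand, chr4:107937221-107937520: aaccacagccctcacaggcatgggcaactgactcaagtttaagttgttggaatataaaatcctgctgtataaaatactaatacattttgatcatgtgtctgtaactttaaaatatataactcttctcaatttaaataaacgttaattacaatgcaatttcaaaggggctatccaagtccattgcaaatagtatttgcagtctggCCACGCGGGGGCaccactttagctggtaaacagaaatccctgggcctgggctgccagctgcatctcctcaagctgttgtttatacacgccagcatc
The match (chr4:107937425-107937436) lay inside the region of both lists, 34 bp from the control summit and 32 bp from the summit in the other list. Of all 32851 start windows 0.317% held this motif on either strand, and of the 1251 windows with a control summit inside 5.04% did (Wilson 95% interval 3.96 to 6.39). The window shown is itself among the 1251, and the motif was chosen with it in view, so its match here carries no weight.

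A second sequence is shown because it is the only start window among the 10 genes with the CTCF core motif searched for, which reads CCA, any 2 bases, AG, any 2 bases, GGC. RefSeq start windows were found for 9 of the 10 genes, 11 windows in all, and Cpt1b had none. The match lies 86 bp before the start of Cpt2 on the strand opposite to the one printed, where it reads CCAAGAGGCGGC, and is in capitals.
Cpt2 upstream 250 bases, minus strand, chr4:107923590-107923839: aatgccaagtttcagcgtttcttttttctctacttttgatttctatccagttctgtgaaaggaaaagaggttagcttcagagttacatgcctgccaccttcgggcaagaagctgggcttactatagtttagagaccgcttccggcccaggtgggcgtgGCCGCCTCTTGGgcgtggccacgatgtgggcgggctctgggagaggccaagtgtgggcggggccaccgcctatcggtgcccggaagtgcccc
No region was called at this match: the nearest control summit was 13.8 kb away and the nearest summit in the other list 13.7 kb away. The core motif was found in 2.43% of all start windows and in 15.8% of windows with a control summit inside (interval 13.9 to 18.0). A match is a run of letters and no measure of binding.

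None of the 11 start windows had a summit within 1 kb of its start site, in either list. Over all start windows 10.2% had a control summit that close, and 7.20% a summit of the library labelled knockout. The nearest control summit lay 5.53 kb from the Acadvl start, 5.87 kb from a Slc27a1 start, 11.4 kb from the Fabp3 start, 13.9 kb from the Cpt2 start, 15.6 kb from the Acadl start and 17.5 kb from the Acadm start. It lay 29.3 kb from the Hadha start and 29.5 kb from the Hadhb start, and 207 kb from the Cd36 start. Inside gene spans, 3 of the 10 genes held a control summit (Slc27a1, Acadl and Hadha), where 28.8% of all protein-coding genes did. Of the 32 control summits 23 lay within a protein-coding gene, 4 of them in a listed fatty acid gene and the others in neighbouring genes. The 50 kb flanks made up most of the window of every listed gene but Cd36. This split was not compared with that of all control summits.

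A control region within 50 kb was found for 9 of the 10 genes, against 72.9% of all protein-coding genes, and a region of the library labelled knockout for the same 9 genes, against 68.6%. Slc27a1 had 8 control regions, a number reached by 3.3% of protein-coding genes, and Fabp3 had 6, reached by 9.63%. Hadhb had 5 (16.1%) and Hadha 4 (26%), and 3 of these were the same regions. Cpt1b and Acadl had 3 each (39.2%). Cpt2, Acadm and Acadvl had 2 each, the median over all protein-coding genes. The windows differed in how many other protein-coding genes they touched: 9 for Slc27a1 and for Cpt1b, 8 for Acadvl, 5 each for Hadha and Hadhb, 4 for Cpt2, 3 each for Fabp3 and Acadm, 1 for Acadl and none for Cd36. Slc27a1 thus combined the highest count with a window full of genes, while Cpt1b, with as many neighbours, had 3 regions.

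**Figure D1:**
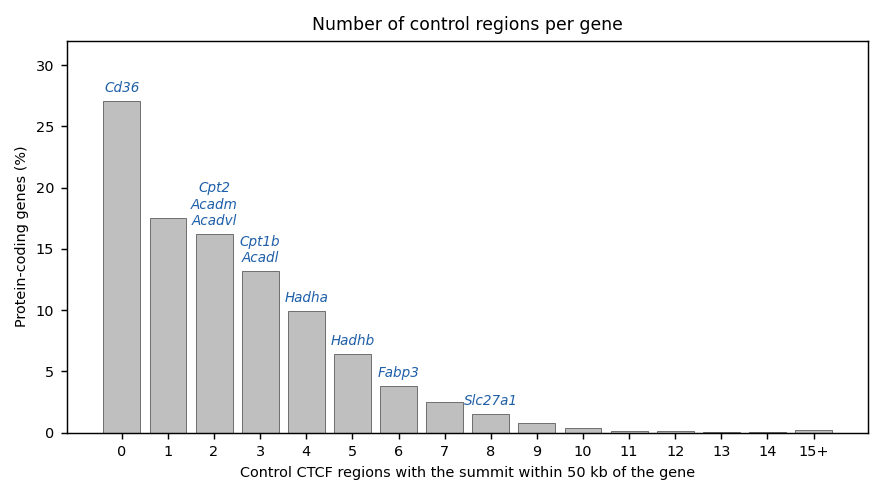
Share of protein-coding genes (vertical axis, %) with each number of control CTCF summits within 50 kb (horizontal axis; the last bar holds 15 or more), with the 10 fatty acid genes written above the bar they belong to. Cd36 stands in the bar at 0, 5 of the genes at 2 or 3 regions, and Slc27a1 furthest to the right at 8.

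Of the 32 control regions, 19 shared 1 bp or more with a region called in the library labelled knockout and are termed kept. This was 59.4% (Wilson 95% interval 42.3 to 74.5), and 69.0% of all control regions were kept, a share inside that interval. The other 13 are termed lost, meaning no more than that the second list had no overlapping region. In pooled cells, fewer cells with CTCF bound and less binding in each cell cannot be told apart. Nor can either be told from a call missed through read depth, which the lists do not give. In the reverse direction 19 of the 20 regions of the library labelled knockout overlapped a control region (95%, interval 76.4 to 99.1), beside 85.8% of that whole list. The 4 functional groups differed in their counts. Near the uptake genes 8 of 14 control regions were kept, near the carnitine shuttle genes 4 of 5, near the acyl-CoA dehydrogenase genes 6 of 7 and near Hadha and Hadhb 1 of 6. Leaving out Hadha and Hadhb, 18 of 26 regions were kept (69.2%, interval 50 to 83.5), and leaving out Slc27a1, 15 of 24 (62.5%). Each omission took out regions with a lower kept share, so the rise was fixed by that choice. No difference between the groups was tested, since regions beside each other in 1 library are not replicates.

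Kept and lost regions differed in strength. The authors give each region a fold enrichment, its ratio over the local background that their peak caller estimated. The lists do not say whether that background came from the ChIP or the input library. From the fold enrichment and the −log10 p a whole number of reads at the summit could be recovered. Kept regions near the 10 genes had control fold enrichments from 4.49 to 18.99 (median 6.99) and 8 to 43 reads (median 14). Lost ones had fold enrichments from 4.47 to 7.85 (median 5.81) and 8 to 15 reads (median 11). The 2 ranges of fold enrichment overlapped up to 7.85, which is above the kept median. Since 7.85 was the highest value among the lost regions, all of these control regions above it were kept by definition, and it marks no threshold. Over the whole control list the medians were 8.14 for kept and 5.48 for lost regions. Above the median fold enrichment of the control list (6.98), 10 of 11 regions near the genes were kept, beside 90.5% of all control regions of that strength. At or below it 9 of 21 were kept (42.9%, interval 24.5 to 63.5), beside 48.1%. The regions near the fatty acid genes were somewhat weaker than the list as a whole, with a median control fold enrichment of 6.38 against 6.98, and 6.65 against 7.13 in the library labelled knockout.

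**Figure D2:**
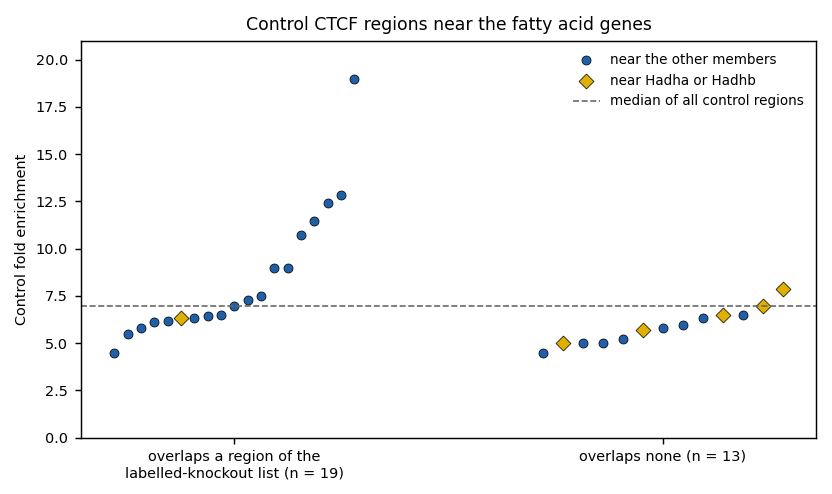
Control fold enrichment (vertical axis) of the 32 control CTCF regions near the fatty acid genes, split by overlap with the library labelled knockout; each point is 1 region, diamonds are regions near Hadha or Hadhb, and the dashed line is the median of all control regions (6.98). Lost regions end at 7.85, and 5 of the 6 diamonds are among them.

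Cd36, the gene of the fatty acid translocase (chr5:17781690-17888959), had no region within 50 kb in either list, as had 25.2% of protein-coding genes. It also touched no other protein-coding gene in that window. In the control library the nearest summits lay 1472 kb below the gene, within Cacna2d1 (chr5:16309701-16309899, fold enrichment 8.97, kept), and 154 kb above it, nearest to Gnat3 (chr5:18043115-18043274, 6.48, lost). The gene thus lay in a stretch of 1733 kb without a control summit, and 7.47% of protein-coding genes lay in a stretch at least as long. In the library labelled knockout the stretch was 514 kb, and 23.4% of protein-coding genes lay in one at least as long. It was shorter because a region of 8 reads was called 208 kb below the gene (chr5:17573711-17573847, fold enrichment 4.86) where the control had none. The first summit above the gene in that library was 199 kb away (chr5:18087938-18088466, fold enrichment 10.8, shared with the control).

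Slc27a1, which encodes the fatty acid transport protein FATP1 (chr8:71568728-71587307), had the region with the highest control fold enrichment of the 32. It lay 8.80 kb above the gene within Pgls, an enzyme gene of the pentose phosphate pathway (chr8:71595964-71596457). It had 43 reads and a fold enrichment of 18.99 in the control, at percentile 99.1 of that list (percentile 100 being the strongest), and 28 reads and 12.5 in the library labelled knockout, at percentile 93.1. The summits in the 2 lists were 2 bp apart. On the other side of the gene a pair of regions 1363 bp apart lay within Nxnl1, a thioredoxin-like gene. The first, 7.09 kb below Slc27a1 (chr8:71561504-71561755), had 28 reads and a fold enrichment of 12.9 in the control and 29 reads and 16.2 in the other library, where it was the highest of the 20. The second, 5.73 kb below (chr8:71562879-71563119), had 24 reads and 11.5, and 21 reads and 11.9. The gene was thus flanked within 9 kb on either side by regions in the upper 15% of both lists.

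The remaining Slc27a1 regions were weaker, and 4 of 5 were lost. A kept region 46.9 kb below, within Ccdc194 (chr8:71521775-71521951), had 19 reads over a local background of 2.11 (fold enrichment 6.43) in the control and 21 reads over 1.31 (9.51) in the other library. The only control region inside Slc27a1 (chr8:71586840-71587180) had 9 reads and a fold enrichment of 4.99 and was lost. Also lost were regions in Pgls (chr8:71595673-71595826, 8 reads, 4.47), in the collagen galactosyltransferase gene Colgalt1 24.0 kb above (chr8:71611277-71611486, 10 reads, 5.21) and 49.5 kb below, nearest to Ccdc194 (chr8:71519172-71519329, 12 reads, 6.33). The lost region in Pgls had its summit 357 bp from that of the region with 43 reads and lay 148 bp from a region of the library labelled knockout.

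Fabp3, the gene of the heart-type fatty acid-binding protein (chr4:130308738-130315463), is a short gene with 6 control regions around it and none inside. All 3 on its lower-coordinate side were kept. The nearest, 11.4 kb away (chr4:130297291-130297485), had 14 reads and a fold enrichment of 7.30 in the control and 23 reads and 9.32 in the library labelled knockout, with summits 1 bp apart. A region 16.3 kb away (chr4:130292227-130292608) had 17 reads and 8.97, and 13 reads and 6.83. The region 43.9 kb away, within the serine incorporator gene Serinc2 (chr4:130264638-130265080), had 17 reads in both libraries, with fold enrichments of 8.97 and 5.35. Its local background was 1.01 reads in the control and 2.36 in the other library, so that the same number of reads gave different fold enrichments.

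On the upper side of Fabp3 all 3 control regions lay within Zcchc17, a zinc-finger protein gene, and 1 was kept. The kept region, 26.4 kb from Fabp3 (chr4:130341695-130342083), had 10 reads in both libraries and fold enrichments of 5.48 and 5.29. A lost region with its summit 372 bp further on (chr4:130342186-130342321, 9 reads, 4.99) lay 95 bp from that same region of the library labelled knockout. The lost region nearest to Fabp3, 12.0 kb above (chr4:130327349-130327632), had 11 reads and a fold enrichment of 5.98.

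Cpt1b, the gene of the muscle form of carnitine palmitoyltransferase 1 (chr15:89416405-89425862), had 3 control regions, all of them kept and all over 42 kb from the gene. The strongest, within the thymidine phosphorylase gene Tymp (chr15:89373866-89374287), had 31 reads and a fold enrichment of 12.4 in the control and 16 reads and 8.78 in the library labelled knockout. It stood at percentile 90.7 of its own list in the first and 71.0 in the second. Its neighbour 645 bp away, in the overlap of Tymp and the cytochrome oxidase assembly gene Sco2 (chr15:89373367-89373704), had 14 reads in both libraries and fold enrichments of 6.99 and 6.43. The third, on the upper side 3.64 kb from the arylsulfatase gene Arsa (chr15:89468753-89468892), had 12 reads and 6.16, and 8 reads and 4.86. Cpt2, the gene of the inner-membrane transferase (chr4:107903982-107923589), had 1 kept and 1 lost region of equal control strength, with 12 reads and a fold enrichment of 6.48 each. The kept one is the region at the Gm40221 start shown above, with 8 reads and 4.86 in the library labelled knockout. The lost one lay 11.4 kb below the gene, within Czib (chr4:107892526-107892940).

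Near the 3 acyl-CoA dehydrogenase genes 6 of 7 control regions were kept. Acadl, the long-chain enzyme gene (chr1:66830839-66863309), was the only listed gene with more than 1 summit inside its span. Both of its internal regions were kept. The first (chr1:66838619-66838784) had 14 reads and a fold enrichment of 7.48 in the control and 13 reads and 7.56 in the other library. The second (chr1:66847573-66847761) had 14 reads and 5.81, and 13 reads and 6.05. The third Acadl region, 32.7 kb above the gene and nearest to the myosin light chain gene Myl1 (chr1:66895745-66896100), also had 14 reads and 5.81 in the control but was lost. The next summit below Acadl was 1548 kb away in both libraries. The next above it in the library labelled knockout was 2276 kb away, where the control had the region at 32.7 kb. The share of all genes with summits this far away is not given here.

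Acadm, the medium-chain enzyme gene (chr3:153922353-153944643), lay midway between its 2 regions, both of them kept. The one 17.6 kb below, within the meiotic recombination gene Msh4 (chr3:153904666-153904849), had 12 reads and a fold enrichment of 6.33 in the control and 11 reads and 6.48 in the library labelled knockout. The one 17.5 kb above, nearest to the choline transporter-like gene Slc44a5 (chr3:153962124-153962259), had 8 reads and 4.49, the lowest control fold enrichment of the 19 kept regions, and 10 reads and 5.94 in the other library. Acadvl, the very-long-chain enzyme gene (chr11:70010183-70015428), also kept both. The one 5.53 kb above, within the synaptic scaffold gene Dlg4 (chr11:70020885-70021087), had 18 reads and 6.11 in the control and 9 reads and 4.98 in the other library. The one within the asialoglycoprotein receptor gene Asgr1, 40.3 kb above (chr11:70055687-70055861), had 21 reads and 10.7, and 20 reads and 11.3.

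Hadha (chr5:30119423-30154980) and Hadhb (chr5:30155253-30184593), the genes of the trifunctional protein's alpha and beta subunits, stand head to head with 272 bases between their spans, and they shared 3 of their 6 control regions. Of the 6 regions 1 was kept (16.7%, interval 3.01 to 56.4), beside 69.0% of all control regions. This was the lowest kept share of the functional groups, and its regions lie beside each other in 1 library. The interval treats them as independent, so it cannot judge the distance from 69.0%. Of the 6, 5 were at or below the median fold enrichment of the control list, and 1 of these 5 was kept. Of all control regions of that strength 48.1% were kept. The remaining region was above the median, where 90.5% of all control regions were kept, and it was lost. The interval is for all 6 regions, so neither share can be judged by it. Whether strength accounts for the low kept share was not tested. The kept region lay within Hadha (chr5:30125611-30125859). It had 12 reads over a background of 1.05 (fold enrichment 6.33) in the control and 21 reads over 2.10 (7.09) in the library labelled knockout. The strongest lost region of all 13 was 4.87 kb below Hadha within Garem2, an adaptor protein gene (chr5:30114493-30114640), with 15 reads and a fold enrichment of 7.85, at percentile 60.4 of the control list. It was the only lost region above the median of that list.

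The other 4 lost regions of this locus had 9 to 13 reads. They lay within 3110082J24Rik (chr5:30104392-30104561, fold enrichment 6.98), within the adhesion receptor gene Adgrf3 (chr5:30201685-30201847, 5.68), 9.39 kb from Adgrf3 (chr5:30215038-30215196, 4.99) and 1.46 kb from Selenoi, an ethanolamine phosphotransferase gene (chr5:30231042-30231181, 6.48). The region 9.39 kb from Adgrf3 had 9 reads. The library labelled knockout had a region of 9 reads 31 bp from it (chr5:30214743-30215006, fold enrichment 5.40), the only one of its 20 regions that overlapped no control region. Neighbouring calls that do not touch are therefore counted as lost on one side and unshared on the other.

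**Figure D3:**
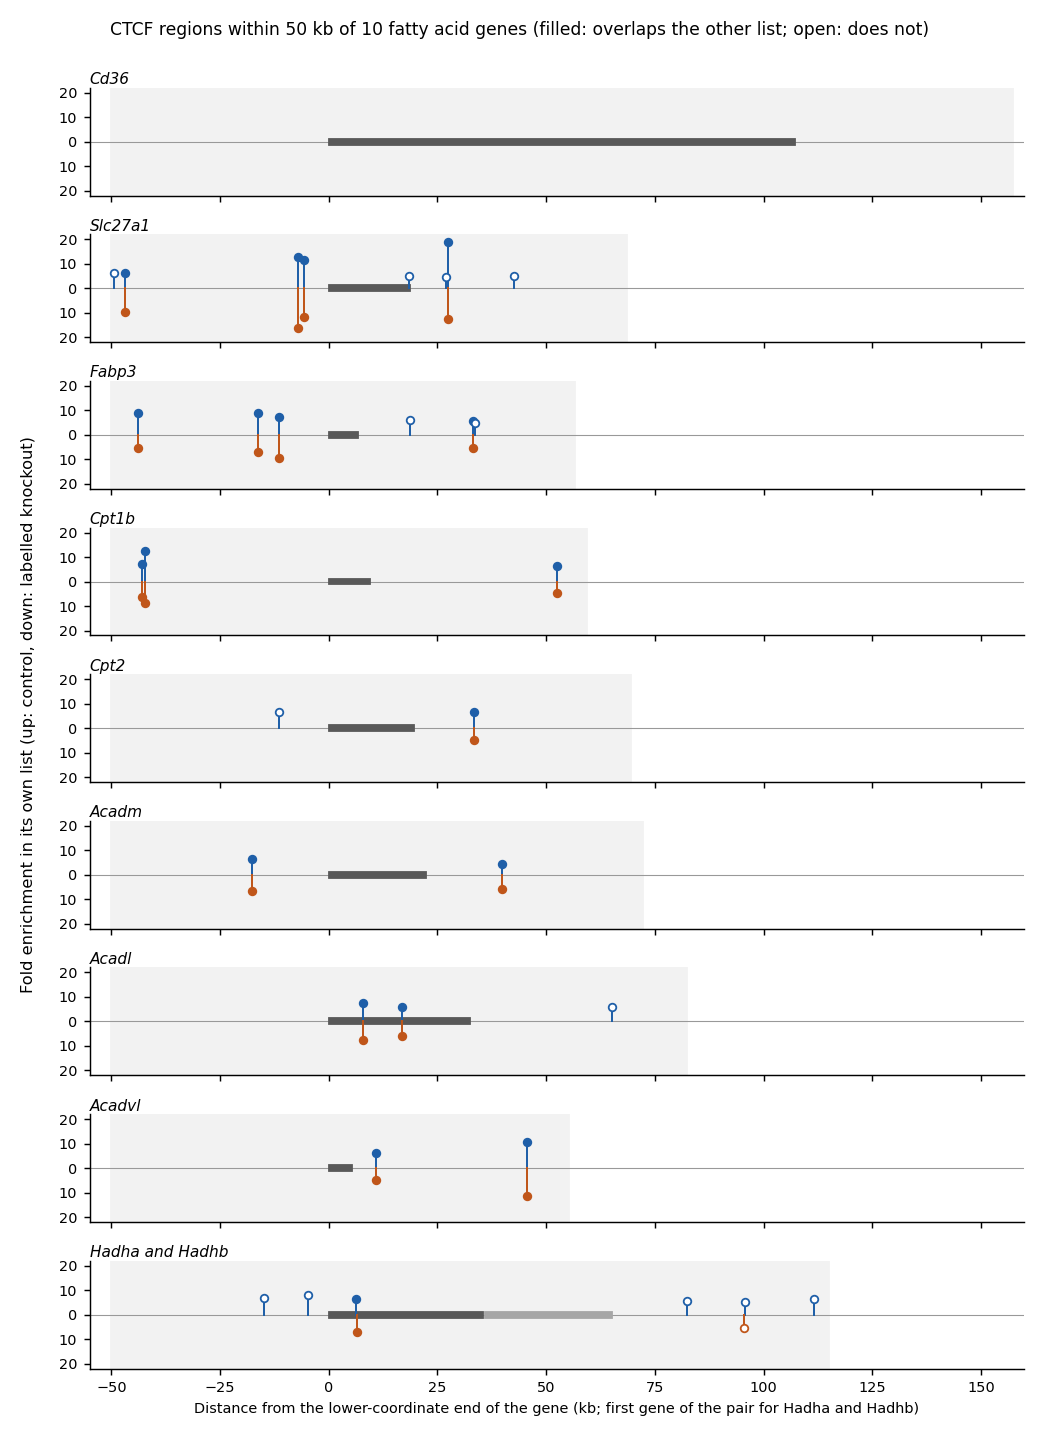
Position (horizontal axis, kb from the lower-coordinate end of the gene) and fold enrichment in its own list (vertical axis) of every CTCF region near the 10 genes, with control regions upward, regions of the library labelled knockout downward, filled circles where the lists overlap and open circles where they do not. Bars are gene spans and the pale band is the 50 kb window; the Cd36 window is empty, and 5 of 6 control circles around Hadha and Hadhb are open.

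At the 19 kept regions the reads at the summit were 8 to 43 in the control and 8 to 29 in the library labelled knockout. The exact Poisson 95% intervals of the 2 libraries overlapped at all 19 regions, and 3 regions had equal numbers. The 19 were selected for a call in both lists, and overlap of intervals this wide cannot show that reads were unchanged. The intervals overlapped by the fewest reads at the Cpt1b region in Tymp, with 31 reads (21.1 to 44.0) and 16 reads (9.15 to 26.0). The reads were not scaled for depth; the lowest local background, which follows depth and fragment length, was 1.01 reads in the control and 0.851 in the other library. All 19 pairs of summits lay within 100 bp of each other, at a median of 18 bp and at most 85 bp. Over all kept control regions the median was 26 bp, and 94% lay within 100 bp.

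**Figure D4:**
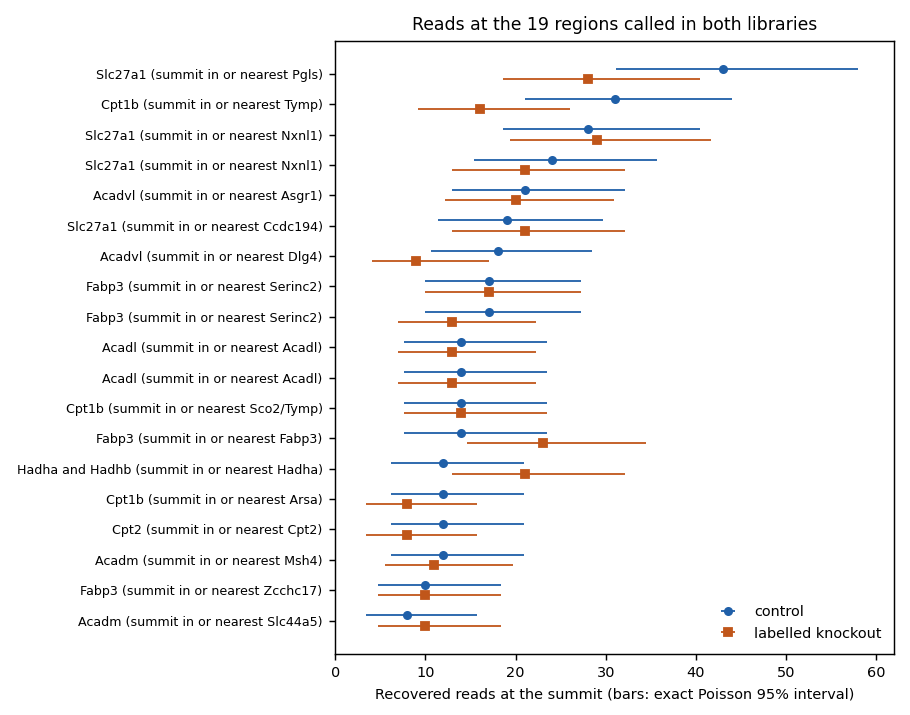
Recovered reads at the summit (horizontal axis) of the 19 CTCF regions called in both libraries, ordered by control reads, with exact Poisson 95% intervals that cover counting error only and are not scaled for depth. The intervals of the 2 libraries overlap in every row, from 43 and 28 reads in Pgls near Slc27a1 to 8 and 10 reads near Slc44a5. Overlap of intervals this wide does not show that reads were unchanged.

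Some of the regions near these genes stood in pairs. Another control summit lay within 2 kb for 8 of the 32 regions (25%, interval 13.3 to 42.1), beside 17.3% of all control regions. These were the 4 pairs in Nxnl1, Pgls, Zcchc17 and Tymp, near Slc27a1, Fabp3 and Cpt1b. Both regions were kept in Nxnl1 and Tymp, and the weaker one was lost in Pgls and Zcchc17. Of the 13 lost regions 3 lay within 500 bp of a region of the library labelled knockout. This was a larger share than the 9.9% of all lost control regions, and the difference was not tested. The median distance of the 13 to such a region was 12.9 kb.

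A wider list of 53 genes of the same pathway was counted by the same rule, and none of its control regions was among the 32. Of the 53 genes 50 had a control region within 50 kb, where 72.9% of all protein-coding genes did; Slc25a20, the carnitine-acylcarnitine translocase gene, Esrrg, an orphan nuclear receptor gene, and Pdk4, a pyruvate dehydrogenase kinase gene, had none. Of 175 control regions 124 were kept (70.9%, interval 63.7 to 77.1), beside 69.0% of all control regions, and their median control fold enrichment was 6.98, as in the whole list. For uptake and binding 15 of 24 were kept (62.5%), for activation and the carnitine shuttle 15 of 27 (55.6%), for mitochondrial oxidation 29 of 39 (74.4%), for regulators 34 of 45 (75.6%) and for triglyceride stores 31 of 40 (77.5%). The intervals of all 5 groups covered 69.0%.

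Regions of the wider list were ranked by control fold enrichment. The strongest kept one was 2.19 kb from Dgat2, which makes triglyceride (chr7:99151188-99151733), with fold enrichments of 28.4 in the control and 27.0 in the library labelled knockout. For uptake it was 11.5 kb from Slc27a5, a liver fatty acid transporter gene (chr7:13009148-13009962, 17.9 and 33.0), and for activation 33.2 kb from the acyl-CoA synthetase gene Acsl5 (chr19:55218235-55218849, 19.96 and 12.3). For oxidation it was 12.5 kb from Decr1, a reductase gene for unsaturated chains (chr4:15957752-15958226, 14.2 and 10.8), and among regulators 6.52 kb from the nuclear receptor gene Ppard (chr17:28226074-28226416, 18.4 and 11.2). The strongest lost regions lay within the caveolin gene Cav1 (chr6:17307413-17307748, 10.97), within the enoyl-CoA isomerase gene Eci1 (chr17:24437023-24437644, 8.97), within the acetyl-CoA carboxylase gene Acaca (chr11:84179842-84180107, 8.97), 46.6 kb from Acsl6 (chr11:54257093-54257283, 8.97) and 11.8 kb from the hormone-sensitive lipase gene Lipe (chr7:25367571-25367910, 8.47). The most regions, 8 each, were near Pnpla2, Plin5 and Mgll, genes of lipolysis and the lipid droplet, and 7, 7 and 6 of them were kept. In the other groups the highest numbers were 6 each near Ppard, Klf15 and Mlycd (5, 6 and 4 kept), 6 near Hadh (5 kept), 5 each near Acsl5 and Acsl6 (3 kept at each) and 4 each near Slc27a2, Slc27a4 and Slc27a5 (3, 3 and 1 kept).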

How the data were processed

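CTCF ChIP-seq regions were used as the authors deposited them, 1 list per library. The build was mm10, and the tools MACS2 (version and threshold not given in the sources used here), SAMtools 0.1.19 and Bowtie2 2.2.6, per the submitters' processing notes. The authors' deposited lists give each region a score, a −log10 p, a −log10 q and a fold enrichment, which is a ratio to local background. The score was 10 times the −log10 q, rounded down to a whole number, in 100% of regions, and the lowest −log10 q was 1.32 and 1.37. The lists give no read depth.

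Regions overlapping by at least 1 bp were shared. Summits were set against gene spans and start windows from RefSeq tables of GRCm38.p6, which give no exons or introns. Reads at the summit were solved from fold enrichment and −log10 p, taking fold enrichment as (reads + 1) / (background + 1) and p as the upper Poisson tail; a whole number fitted within 0.001 for 100% of regions. Overlap and recovery were tested on simulated data. Shares have Wilson 95% intervals and reads exact Poisson 95% intervals, both for counting error only. Fold enrichments were ranked within each list, and no direction is read between lists.

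The 10 genes, the wider list and all rules were chosen with earlier results of these data known. All 10 genes and all their regions are named; of the wider list, each group's strongest kept region, strongest lost region and genes with the most regions. Other windows, thresholds, overlap rules and motifs were tried. The software was Python 3.11.15 with scipy 1.17.1, pandas 2.3.3, numpy 2.4.6 and matplotlib 3.10.9.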

Additional observations from a re-analysis of the deposited data

How the results depend on the processing

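No paired analysis was possible because there was 1 library per genotype. With the summit within 10 kb of the gene, the number of control regions was 10, that of the library labelled knockout 7 and the number of genes with a control region 4, against 32, 20 and 9 at 50 kb; within 25 kb the numbers of regions were 20 and 12. These windows hold fewer regions by construction. The share of labelled-knockout regions shared with the control was 100% within 10 kb and within 25 kb, 80% when overlap had to reach 50% of both regions and 88.2% when fold enrichments under 5 were left out, against 95%. For the wider list the kept share was 63.6% within 10 kb and 61.7% with a reciprocal overlap of at least 50%, against 70.9%. The cause was not tested. A reciprocal overlap of at least 50% can only lower a share taken at 1 bp. Shares of all regions under the other rules are not given here, so no change can be read as particular to these genes. The motif was in 1 start window of the 10 genes, in 2 with a looser form (any base at the third position) and in 0 with the G-rich form, which was chosen after the data were examined. The kept share of control regions near the 10 genes stayed inside its interval under all 8 alternatives, from 50% with reciprocal overlap to 70% within 10 kb. That interval was wide (42.3 to 74.5) and the alternatives drew on largely the same regions, so this is no sign of a stable share. With 8 to 15 reads at the lost regions, a weaker signal in the second library cannot be told from none.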
